A study of Mus musculus with 24 samples.

Results

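The mevalonate pathway up to squalene epoxide was followed through 9 genes in mouse liver: Acat2, Hmgcs1, Mvk, Pmvk, Mvd, Idi1, Fdps, Fdft1 and Sqle, in the order of their reactions. They were taken by gene symbol from the deposited gene tables, which listed 17537 genes above 0 in at least 1 of 24 liver libraries, and all 9 were among the 10697 genes that passed a filter of at least 1 FPKM (fragments per kilobase of transcript, scaled to the size of the library) in at least 6 libraries. The study gave male C57BL/6 mice of 20 to 30 g, 12 per group, 1 of 4 gavages and made 6 RNA-seq libraries per group from liver. The group DE received 2500 mg/kg body weight of DEHP, a phthalate plasticiser, together with 1 g/kg ethanol. The group DEHP received the same dose of DEHP, the group EtOH received 1 g/kg ethanol, and the group CT received 0.5% CMC. CMC is named for CT, and whether the other gavages contained it is not stated, nor are the age of the mice, the duration of treatment or a tie between a library and an animal. The p-values therefore measure the spread between these libraries, which may be technical in part.

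The mevalonate pathway builds isoprenoids and sterols from acetyl-CoA in the cytosol. A thiolase and HMG-CoA synthase make HMG-CoA, mevalonate is formed from it, kinases and a decarboxylase make isopentenyl diphosphate, and farnesyl diphosphate synthase and squalene synthase join these units into squalene, which squalene epoxidase oxidises ahead of ring closure. Liver is a main site of this synthesis, and the genes are known targets of SREBP-2, a transcription factor released from its membrane when sterols are low. DEHP acts on liver mainly through its monoester, an activator of the receptor PPARalpha.

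The sequence upstream of the genes is shown for 4 members, because their changes mark the ends of what follows. Hmgcs1 was the second most abundant transcript of the pathway. Mvk and Mvd had the smallest and the largest change in DE against CT livers. Pmvk was the 1 member called between EtOH and CT livers, near the threshold. Each line is the 250 bases before an annotated transcript start, 5′ to 3′ on the gene's own strand, from RefSeq on GRCm38.p6: Hmgcs1 at chr13:119690101-119690350, plus strand, Mvk at chr5:114444019-114444268, plus strand, Pmvk at chr3:89454291-89454540, plus strand, and Mvd at chr8:122443423-122443672, minus strand. Capitals mark matches, on either strand, to the sterol regulatory element TCACNCCAC, a binding sequence of SREBPs, and to the CCAAT box CCAAT, which is bound by NF-Y and reads ATTGG on the other strand.
Hmgcs1: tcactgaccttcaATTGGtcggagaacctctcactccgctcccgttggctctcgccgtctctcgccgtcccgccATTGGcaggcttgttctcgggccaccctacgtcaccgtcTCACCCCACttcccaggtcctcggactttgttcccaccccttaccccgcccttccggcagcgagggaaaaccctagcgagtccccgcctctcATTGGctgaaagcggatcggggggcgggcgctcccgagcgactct
Mvk: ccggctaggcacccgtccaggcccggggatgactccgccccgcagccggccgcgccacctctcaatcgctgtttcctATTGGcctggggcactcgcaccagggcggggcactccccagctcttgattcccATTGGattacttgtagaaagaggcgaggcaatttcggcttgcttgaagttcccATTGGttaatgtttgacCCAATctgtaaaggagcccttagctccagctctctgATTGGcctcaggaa
Pmvk: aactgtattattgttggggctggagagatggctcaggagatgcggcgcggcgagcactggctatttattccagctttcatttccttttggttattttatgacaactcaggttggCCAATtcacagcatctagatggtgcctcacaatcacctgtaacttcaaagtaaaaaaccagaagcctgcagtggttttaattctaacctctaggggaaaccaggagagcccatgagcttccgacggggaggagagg
Mvd: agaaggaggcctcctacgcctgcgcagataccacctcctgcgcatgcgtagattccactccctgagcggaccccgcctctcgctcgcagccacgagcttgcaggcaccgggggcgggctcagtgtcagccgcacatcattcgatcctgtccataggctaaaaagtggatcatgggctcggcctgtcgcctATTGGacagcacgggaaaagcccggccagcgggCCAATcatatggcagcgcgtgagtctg
The 250-base window was available for 6 of the 9 members, and those of Acat2 and Idi1 were searched as well. The sterol element was found before 1 of the 6, Hmgcs1, where it begins 137 bases before the start, and in 1.053% of 32851 windows of the same length. A CCAAT box stood before 5 of the 6, with 5 matches for Mvk, 3 for Hmgcs1, 2 each for Mvd and Idi1 and 1 for Pmvk, and in 33.85% of all windows. For Pmvk this counts the window before the gene's first start, and a further annotated window inside the gene, chr3:89459321-89459570, held 0 matches. The GC box GGGCGG, bound by Sp1, was in the windows of 5 of the 6, all but Pmvk, and in 32.742% of all windows. A match describes these letters and not a used site. Only exact matches within 250 bases were counted, so a window without one is not shown to lack such an element.

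Library totals were close to each other, between 7324793 and 8016662 expected counts, with 13958 to 15114 genes above 0. Some libraries stood apart by transcripts of other tissues. The summed FPKM of 7 skeletal muscle markers reached 4098 in DE 6 and 5585 in CT 1, against at most 3.87 in the DEHP group and 2.76 in the EtOH group. The sum of 8 exocrine pancreas markers reached 543 in DEHP 6. All 8 hepatocyte markers were above 0, and their sum ran from 41311 to 46860 in DE, from 40420 to 48390 in DEHP, from 56961 to 70984 in EtOH and from 51514 to 69831 in CT livers. It was thus lower in both groups given DEHP, where the pathway was higher, and the part of this shift in the results was not tested. In bulk liver, fewer cells of a type and less RNA per cell cannot be told apart.

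Every member was higher in the livers given DEHP. In DEHP livers, 9 of 9 genes were higher than in CT livers, by 1.65-fold to 3.05-fold, with a median log2 change of 1.13 against -0.02 over all genes tested (edgeR quasi-likelihood test, Benjamini-Hochberg adjusted p below 0.05 as the threshold). Of all tested genes 14.4% were called higher in that comparison. With ethanol added, in DE livers, the 9 genes were higher than in CT by log2 changes of 1.00 to 2.11, with a median of 1.46 against -0.01 over all genes, where 19.3% of genes were called higher. In EtOH livers 0 of 9 members were called higher than in CT by edgeR or DESeq2, Mvd had the only higher value with an unadjusted p below 0.05, and 1 member, Pmvk, was called lower, with a median log2 change of -0.05 against -0.01 over all genes, of which 14.2% were called higher and 14.5% lower. The count of 1 in 9 called lower was near the share of all genes. These comparisons share the 6 CT libraries. Without DE 6, DEHP 6 and CT 1, the 9 members stayed called higher in both comparisons, with log2 changes of 0.97 to 2.13 for DE against CT and 0.72 to 1.61 for DEHP against CT. Pmvk stayed the 1 call in EtOH against CT.

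**Figure D1:**
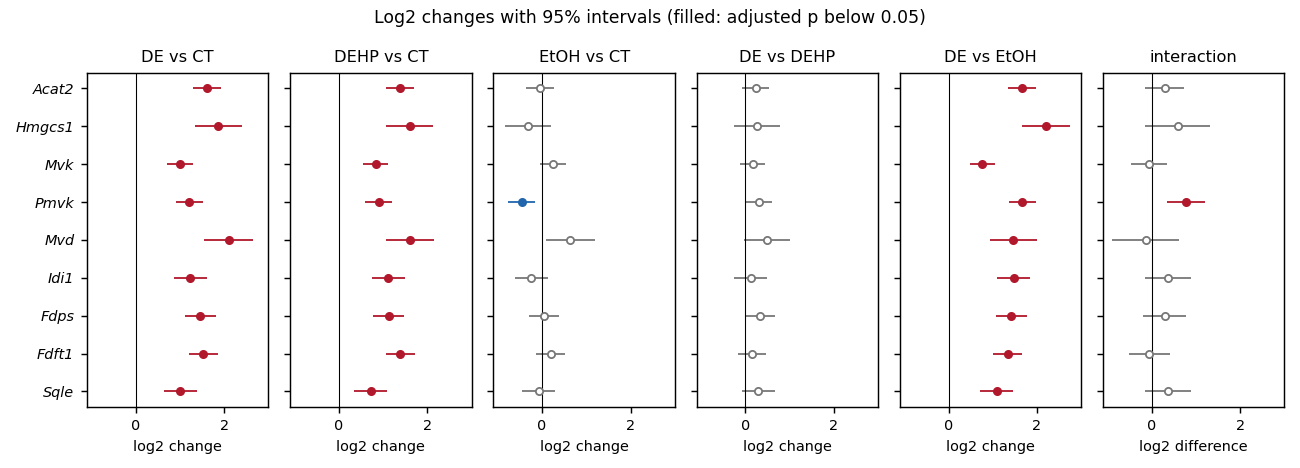
Log2 change of each gene (horizontal axis) with its 95% interval in DE vs CT, DEHP vs CT, EtOH vs CT, DE vs DEHP, DE vs EtOH and, in the last panel, the ethanol change in mice given DEHP minus the ethanol change in mice not given it (interaction). Filled points passed an adjusted p of 0.05 in edgeR's quasi-likelihood test; all 9 are filled and positive wherever a group given DEHP is set against one that was not, and Pmvk is the only filled point in the EtOH vs CT and interaction panels.

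The pathway starts with Acat2, the cytosolic acetoacetyl-CoA thiolase (gene 110460, chromosome 17, 12943042 to 12960725, GRCm38.p6). Its FPKM spanned 109 to 170 with a median of 157 in DE livers and 90.9 to 193 with a median of 122 in DEHP livers. In EtOH livers it spanned 36.2 to 54.9 with a median of 43.5, and in CT livers 36.6 to 66.7 with a median of 45.7. Every library of the groups given DEHP lay above every library of the others. The log2 change against CT was 1.61 ± 0.15 for DE (SE, n = 6 libraries per group, adjusted p = 1.41e-08) and 1.38 ± 0.15 for DEHP (adjusted p = 2.5e-07). Acat2 and its neighbour Acat3, a related thiolase on the same strand, share 45.89% of the 50-base windows of the longest coding Acat2 transcript, and the counts of both were fractional in 24 of 24 libraries. Reads of these genes could therefore be divided between them. Acat3 averaged 196 ± 11.6 FPKM in DE, 217 ± 30.8 in DEHP, 197 ± 15.3 in EtOH and 217 ± 28.3 in CT livers (SD, n = 6), and was not called in any comparison. Its log2 change was -0.16 for DE against CT (adjusted p = 0.204) and -0.02 for DEHP against CT (adjusted p = 0.899).

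Hmgcs1, the cytosolic HMG-CoA synthase (gene 208715, chromosome 13, 119690351 to 119708260), makes HMG-CoA and varied widely between libraries. It spanned 305 to 715 FPKM with a median of 450.0 in DE livers and 296 to 636 with a median of 382 in DEHP livers. In EtOH livers it spanned 58.4 to 197 with a median of 90.0, and in CT livers 98.1 to 229 with a median of 116. The groups given DEHP did not overlap with the others, and 5 of 6 EtOH libraries lay below the lowest CT library while EtOH 6 lay near the top of the CT range. The log2 change against CT was 1.87 ± 0.26 for DE (adjusted p = 4.7e-06) and 1.60 ± 0.26 for DEHP (adjusted p = 5.06e-05). EtOH against CT gave -0.33 ± 0.25 (adjusted p = 0.341), which did not pass, but without EtOH 6 it gave -0.63 and passed (adjusted p = 0.0448).

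A mitochondrial paralog also rose in the groups given DEHP. Acat1, the mitochondrial acetoacetyl-CoA thiolase, averaged 280 ± 25.4 FPKM in DE, 249 ± 30.6 in DEHP and 170.0 ± 28.4 in CT livers (SD, n = 6). It rose by a log2 change of 0.72 in DE (adjusted p = 2.88e-06) and 0.53 in DEHP livers (adjusted p = 0.000235). It was not called in EtOH livers. Idi2, the paralog of Idi1, did not pass the filter on low values. The difference in change between a member and its paralog was not tested.

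**Figure D2:**
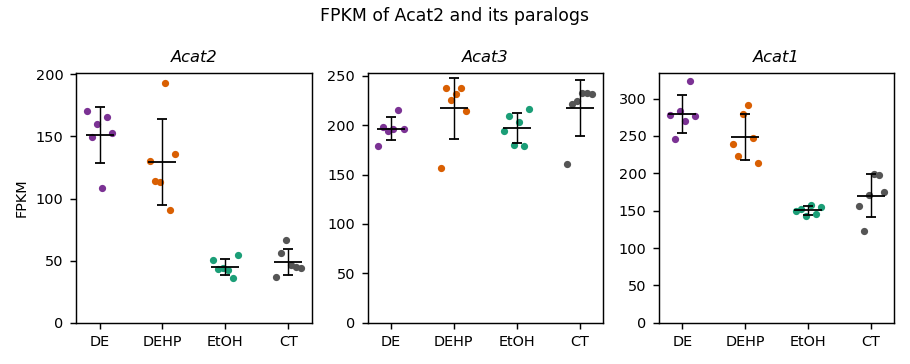
FPKM in each library (points) with group mean and SD (bars) for Acat2, Acat3 and Acat1, in DE, DEHP, EtOH and CT livers from left to right. The groups given DEHP lie above the others for Acat2, and the ranges of Acat3 overlap in all 4 groups.

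Mvk, mevalonate kinase (gene 17855, chromosome 5, 114444264 to 114460591), adds the first phosphate to mevalonate and had the lowest mean level of the members in DE, DEHP and EtOH livers. It spanned 36.9 to 52.7 FPKM with a median of 40.5 in DE livers and 32.7 to 46.9 with a median of 36.5 in DEHP livers. The EtOH libraries covered 15.6 to 29.3 with a median of 23.8, and the CT libraries 17.7 to 27.8 with a median of 20.0. The DE and DEHP libraries again lay above all others. On the log2 scale it rose by 1.00 ± 0.14 in DE and 0.83 ± 0.14 in DEHP livers against CT (adjusted p = 4.98e-06 and 8.77e-05).

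Pmvk, phosphomevalonate kinase (gene 68603, chromosome 3, 89454541 to 89469014), adds the next phosphate and was the member with a call in EtOH livers. Its FPKM spanned 128 to 216 with a median of 162 in DE livers and 102 to 174 with a median of 128 in DEHP livers. EtOH livers held 35.0 to 61.4 with a median of 48.7, and CT livers 60.2 to 90.3 with a median of 68.0. The DE and DEHP libraries lay above all CT libraries, and 4 of 6 EtOH libraries lay below the lowest CT library. The log2 change against CT was 1.21 ± 0.15 for DE (adjusted p = 8.78e-07), 0.90 ± 0.15 for DEHP (adjusted p = 6.36e-05) and -0.46 ± 0.15 for EtOH (adjusted p = 0.0233).

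Mvd, mevalonate diphosphate decarboxylase (gene 192156, chromosome 8, 122433596 to 122443422), makes isopentenyl diphosphate and had the largest fold of the 9 in DE against CT livers. In DEHP against CT livers its log2 change of 1.61 was level with the 1.60 of Hmgcs1, and in DE against EtOH livers, at 1.47, it came 5th of the 9. It spanned 55.3 to 84.3 FPKM with a median of 74.8 in DE livers and 38.8 to 71.0 with a median of 46.6 in DEHP livers. With ethanol alone it covered 16.6 to 42.1 with a median of 21.0, and in CT livers 8.34 to 29.0 with a median of 15.1. DE and DEHP libraries did not overlap with CT, but the highest EtOH library lay above the lowest DEHP library. The change against CT was 4.31-fold in DE (log2 change 2.11 ± 0.27, adjusted p = 1.32e-06) and 3.05-fold in DEHP livers (1.61 ± 0.27, adjusted p = 7.33e-05).

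Idi1, isopentenyl diphosphate isomerase (gene 319554, chromosome 13, 8885606 to 8892396), interconverts the isoprene units. It spanned 157 to 258 FPKM with a median of 198 in DE livers and 147 to 307 with a median of 159 in DEHP livers. In EtOH livers it spanned 48.7 to 83.0 with a median of 67.2, and in CT livers 59.7 to 130 with a median of 81.1. The groups given DEHP lay above the others, by 2.35-fold in DE and 2.17-fold in DEHP livers against CT. Its counts were fractional in 23 of 24 libraries, and 21.32% of its 50-base transcript windows also occur in transcripts of another gene, Gm13502.

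Fdps, farnesyl diphosphate synthase (gene 110196, chromosome 3, 89093588 to 89101967), makes the branch point to sterols, dolichol, ubiquinone and protein prenylation, and was the most abundant member in every group. It spanned 573 to 834 FPKM with a median of 681 in DE livers and 461 to 674 with a median of 519 in DEHP livers. EtOH libraries ranged over 161 to 345 with a median of 249, and CT libraries over 200 to 340 with a median of 218. No library of a group given DEHP fell within the range of the others. The rise against CT was 2.74-fold in DE (log2 change 1.46 ± 0.17, adjusted p = 4.4e-07) and 2.19-fold in DEHP livers (1.13 ± 0.17, adjusted p = 2.2e-05). Transcripts of other genes on the same strand, such as Gm43738 and Gm3571, together hold 86.42% of the 50-base windows of its longest coding transcript. Its deposited counts were whole in every library, and how the counting treated reads that match several places is not given in the sources used here, so its level is uncertain.

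Fdft1, on chromosome 14 from 63145150 to 63181687 (gene 14137), encodes squalene synthase, which commits farnesyl diphosphate to sterols. It spanned 97.2 to 129 FPKM with a median of 117 in DE livers, 84.0 to 130 with a median of 99.7 in DEHP livers, 31.1 to 60.8 with a median of 42.6 in EtOH livers and 32.1 to 57.0 with a median of 36.0 in CT livers. The groups given DEHP lay above the others, with log2 changes against CT of 1.53 ± 0.16 in DE and 1.39 ± 0.16 in DEHP livers. Its longest coding transcript shares 19.87% of its windows with Ctsb on the opposite strand and 10.85% with Gm6781 on the same strand. Sharing with a gene on the opposite strand was 13.18% for Acat2 (Tcp1), 13.59% for Hmgcs1 (Gm48342) and 9.2% for Idi1 (Gm48574). Whether the counting used strand is not given in the sources used here.

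Sqle, squalene epoxidase (gene 20775, chromosome 15, 59315092 to 59331193), is the oxygen-requiring step that closes this stretch of the pathway and a known control point of sterol synthesis. Its FPKM spanned 69.7 to 99.4 with a median of 88.1 in DE livers and 53.9 to 92.4 with a median of 66.6 in DEHP livers. Levels in EtOH livers covered 31.3 to 49.3 with a median of 36.7, and those in CT livers 26.8 to 63.5 with a median of 37.5. All DE libraries lay above CT, while 4 of 6 DEHP libraries lay above the highest CT library. The log2 change was 1.01 ± 0.18 for DE (adjusted p = 0.000115) and 0.72 ± 0.18 for DEHP (adjusted p = 0.00471), the smallest DEHP change of the 9. Counted over all members, the groups did not overlap for 9 of 9 genes in DE against CT, a pattern that 10.7% of all tested genes showed in that direction, and for 8 of 9 in DEHP against CT, with 7.24% of all genes.

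**Figure D3:**
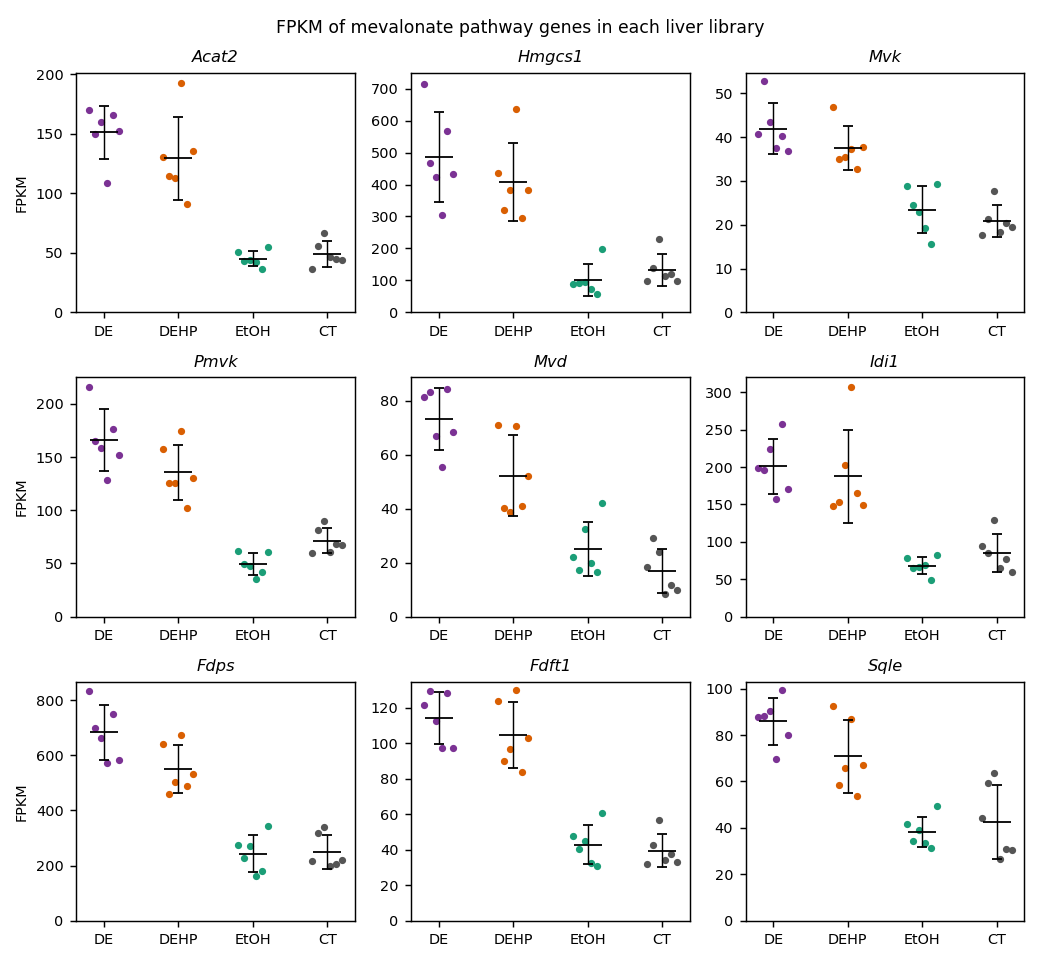
FPKM of the 9 genes in each library (points), with group mean and SD (bars), in DE, DEHP, EtOH and CT livers from left to right; each panel has its own axis starting at 0. DE and DEHP livers lie above CT livers without overlap in every panel except Sqle, where 4 of 6 DEHP libraries exceed the highest CT library.

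The comparison of DE with EtOH livers, which asks what DEHP did in mice that also received ethanol, gave the same direction. In DE livers 9 of 9 were called higher than in EtOH livers, where 15.1% of tested genes were, and for all 9 the groups did not overlap, as for 11.3% of tested genes in that direction. The median log2 change was 1.47, against 0.02 over all genes. The largest change was that of Hmgcs1, at 4.58-fold (log2 change 2.20 ± 0.26, adjusted p = 6.22e-07). Next came Pmvk, at 3.18-fold (1.67 ± 0.15, adjusted p = 7.71e-09), level with Acat2, at 3.17-fold (1.67 ± 0.15, adjusted p = 1.04e-08). The smallest was that of Mvk, at 1.70-fold (0.76 ± 0.14, adjusted p = 0.000158). Without DE 6, DEHP 6 and CT 1, all 9 stayed called, with log2 changes of 0.80 to 2.23.

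In EtOH livers most members had no call against CT. Besides Pmvk, whose fall to 49.5 ± 10.4 FPKM in EtOH livers stood against 71.5 ± 12.1 in CT livers (SD, n = 6), the largest value was that of Mvd, which averaged 25.1 ± 10.1 FPKM in EtOH and 16.9 ± 8.31 in CT livers. Its log2 change of 0.64 ± 0.27 did not pass (adjusted p = 0.0727), although 5 of 6 EtOH libraries lay above the CT mean, and without CT 2 it was 0.88 and passed (adjusted p = 0.0176). The other values were 0.24 for Mvk, 0.20 for Fdft1, -0.05 for Acat2, -0.08 for Sqle, -0.25 for Idi1 and -0.33 for Hmgcs1, with adjusted p between 0.203 and 0.824. Fdps was at 0.04 (adjusted p = 0.889), and its sign changed under 14 of 37 alternative settings. The fall of Pmvk was near the threshold: leaving out EtOH 4, EtOH 5, CT 2 or CT 3 gave log2 changes of -0.37, -0.42, -0.41 and -0.39 with adjusted p between 0.0543 and 0.0666.

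No member was called between DE and DEHP livers. The 9 log2 changes of DE against DEHP livers were all positive, from 0.12 for Idi1 to 0.50 for Mvd, with a median of 0.27 against 0.00 over all genes. By edgeR, DESeq2 and limma 0 of 9 were called (edgeR adjusted p between 0.456 and 0.848), where edgeR called 0.122% of tested genes in either direction, and 1, Pmvk, had an unadjusted p below 0.05. The 95% interval for Pmvk was 0.003 to 0.602, for Mvd -0.02 to 1.02, and for Fdps -0.02 to 0.67. Mvd averaged 73.2 ± 11.5 FPKM in DE and 52.2 ± 15.1 in DEHP livers (SD, n = 6). Of these 3 intervals the one for Pmvk lay just above 0, and the other two included 0.

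Whether ethanol changed a member differently when DEHP was also given was tested directly. The test passed for Pmvk, whose log2 change was 0.30 ± 0.15 for DE against DEHP and -0.46 ± 0.15 for EtOH against CT, a difference of 0.76 ± 0.21 (95% interval 0.33 to 1.19, adjusted p = 0.0285). In that test 6.41% of all genes were called in either direction. The other 8 members did not pass, with differences from -0.14 for Mvd to 0.59 for Hmgcs1 and adjusted p between 0.324 and 0.916. Values of Mvk and Fdft1 were -0.07 and -0.05, and their signs changed under several scalings. The Pmvk call was lost without DEHP 6, EtOH 5, CT 2 or CT 3, with differences of 0.75, 0.72, 0.71 and 0.69 and adjusted p between 0.0503 and 0.0549.

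Summed over the 9 genes, FPKM reached 1532 to 2466 in DE livers with a median of 1988, and 1355 to 2309 in DEHP livers with a median of 1578. In EtOH livers the sum was 461 to 923 with a median of 628, and in CT livers 572 to 1028 with a median of 619. The lowest DEHP library thus lay above the highest CT library, CT 3. Fdps and Hmgcs1 made up most of the sum in every group. Fdps held 34.3% of it in DE, 33.1% in DEHP, 38.0% in EtOH and 35.4% in CT livers on average. Hmgcs1 held 23.9% in DE, 24.1% in DEHP, 15.3% in EtOH and 18.5% in CT livers. Pmvk held 8.29% in DE, 8.13% in DEHP, 7.91% in EtOH and 10.3% in CT livers. These shares are per length and describe transcripts, not enzyme, and were not tested.

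**Figure D4:**
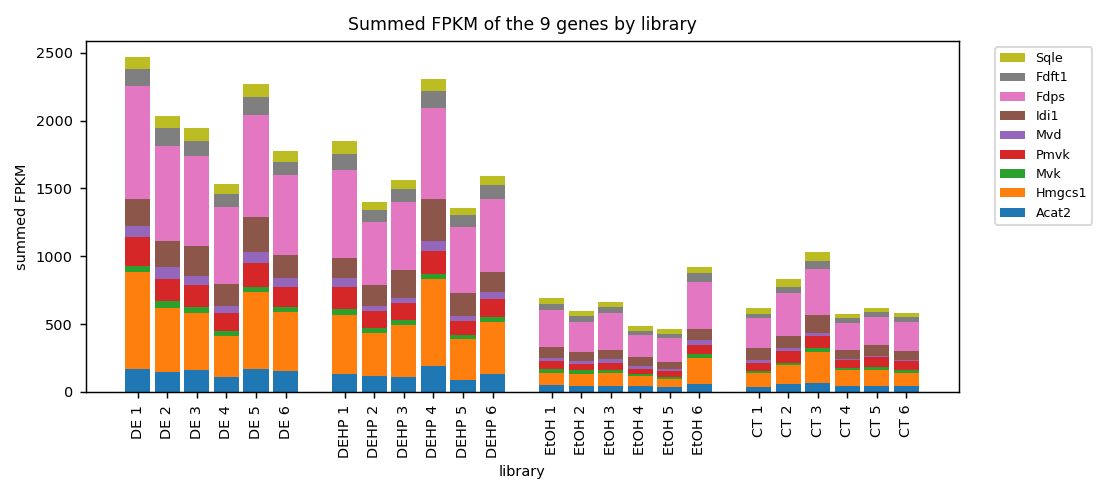
Summed FPKM of the 9 genes in each library (bar height, stacked by gene), for DE, DEHP, EtOH and CT livers from left to right. The DE and DEHP bars stand at 1355 or more and the EtOH and CT bars at 1028 or less.

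By mean FPKM the order of the members was nearly the same in all groups: Fdps, Hmgcs1, Idi1, Pmvk, Acat2, Fdft1, Sqle, Mvd and Mvk. In CT livers Sqle stood above Fdft1 and Mvk above Mvd. Most neighbours in this order overlapped in range. Those that did not were Hmgcs1 over Idi1 and Mvd over Mvk in DE livers, and Fdft1 over Mvk in CT livers.

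Within a group, the members tended to go up and down together from library to library. With each group's mean removed, the 36 pairs of members had a median Pearson r of 0.73 over 24 libraries, from 0.44 for Mvk with Idi1 to 0.93 for Fdps with Fdft1. These libraries share their groups' treatment and a TMM scaling, so the values are a description. In CT 3, CT 2, EtOH 6, EtOH 3, DE 1 and DE 2, all 9 members lay above their group's mean log2 CPM. In DE 4, DE 6, DEHP 2, DEHP 5, EtOH 4, EtOH 5, CT 4, CT 5 and CT 6, none of them did. The furthest libraries, averaged over the members in units of each gene's own spread, were CT 3 at 1.71 and EtOH 6 at 1.54 above their groups. On the low side the furthest was EtOH 5, at -1.33 relative to its group. Of the libraries with transcripts of other tissues, DE 6 stood at -0.73, DEHP 6 at -0.09 and CT 1 at -0.54. CT 3 also had the highest sums of its group for Kupffer cell and macrophage markers and for sinusoidal endothelial markers. Within CT, the sum of cholangiocyte markers was highest in CT 2 (38.8) and that of stellate cell markers in CT 1 (215). The summed FPKM of 6 Kupffer cell and macrophage markers was 61.4 to 98.6 in DE, 76.4 to 207 in DEHP, 53.5 to 103 in EtOH and 56.5 to 166 in CT livers, highest in DEHP 1 and CT 3 of their groups, and none of the 6 was at 0 in all libraries. The sum of 6 sinusoidal endothelial markers was 50.2 to 82.9 in DE, 52.8 to 86.3 in DEHP, 39.6 to 55.6 in EtOH and 49.8 to 105 in CT livers, again highest in DEHP 1 and CT 3, and lowest of its group in EtOH 5. Other libraries did not follow this pattern. EtOH 6, at 1.54, had the lowest Kupffer cell and macrophage sum of its group (53.5) and an endothelial sum of 47.5. DEHP 4, the furthest above the mean in DEHP livers at 1.17, had sums of 78.7 and 66.5. The part of these cells in the deviations was not tested.

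**Figure D5:**
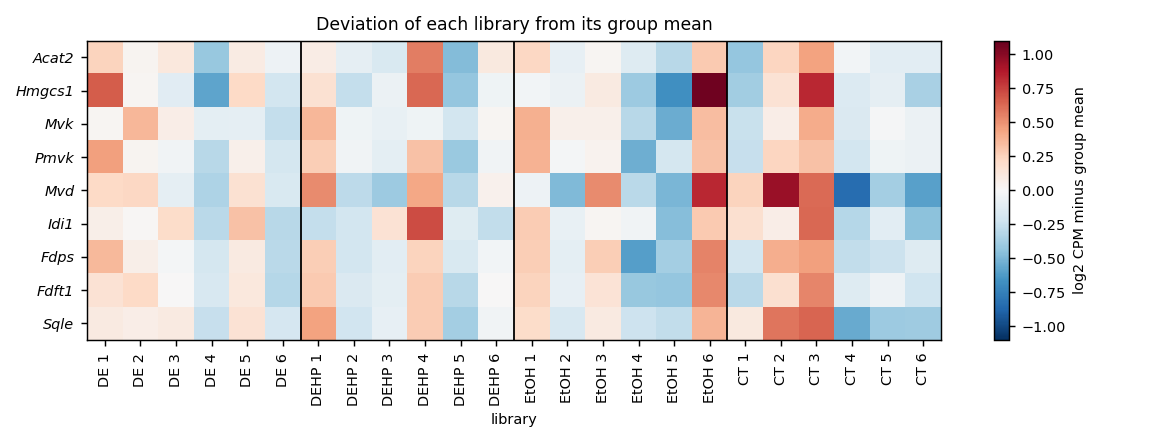
Log2 CPM of each gene (rows) minus its group mean, for each library (columns) of DE, DEHP, EtOH and CT livers from left to right; red is above and blue below the group mean. Columns tend to hold 1 colour, as in CT 3 and EtOH 6 (all 9 genes above) and in EtOH 5 and DE 4 (all 9 below).

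The genes outside the set that varied most like it, by Pearson r with the mean standardised level of the members over the same 24 libraries, were Lss at 0.96, Dhcr7 at 0.93, Cyp51 at 0.90, Msmo1 at 0.88 and Rdh11 at 0.85. Over 10688 genes the median of this measure was 0.00 and the 95th percentile 0.42. Lss, lanosterol synthase, closes the sterol ring right after squalene epoxide. It averaged 38.0 ± 8.44 FPKM in DE, 32.8 ± 9.16 in DEHP, 10.2 ± 2.55 in EtOH and 13.1 ± 3.82 in CT livers (SD, n = 6).

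Lists of other genes of sterol and lipid metabolism are given by counts and medians, and differences between the lists were not tested. Of all tested genes, 19.3% rose in DE, 14.4% in DEHP and 14.2% in EtOH livers against CT, and 14.5% fell in EtOH livers. Of 11 tested enzymes from lanosterol to cholesterol, 10 rose in DE and 10 in DEHP livers against CT, with median log2 changes of 1.01 and 0.90 and none called lower. Cyp51, lanosterol demethylase, rose by 1.27 in DE and 1.15 in DEHP livers on the log2 scale. In EtOH livers 1 of these 11, Tm7sf2, a sterol reductase, was higher than in CT (0.50, adjusted p = 0.000924). Of 12 genes of sterol sensing and SREBP processing, 4 rose in DE and 4 in DEHP livers, where 19.3% and 14.4% of all genes rose, with median log2 changes of 0.10 and 0.15. In DEHP livers Srebf2, which encodes SREBP-2, rose by 0.46 (adjusted p = 0.00137), and its escort Scap by 0.46 (adjusted p = 0.00433). In EtOH livers 4 of the 12 rose and 1 fell, where 14.2% of all genes rose and 14.5% fell, with a median of 0.12. Insig2, which retains SREBPs in the endoplasmic reticulum, fell by 0.67 (adjusted p = 0.000115), and Srebf1 rose by 0.86 (adjusted p = 0.00299).

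Of 11 tested genes of LDL uptake and sterol trafficking, 5 rose in DE, 2 in DEHP and 5 in EtOH livers against CT, and 1 fell in EtOH livers. The shares of all genes that rose were 19.3% in DE, 14.4% in DEHP and 14.2% in EtOH livers, so the count of 2 in DEHP livers was near that of all genes. The median log2 changes were 0.26 in DE, 0.15 in DEHP and 0.30 in EtOH livers. A list of 14 genes covered the branches from farnesyl diphosphate to dolichol, ubiquinone and protein prenylation. Of these, 2 rose in DE and 2 in DEHP livers, with median log2 changes of 0.06 and 0.00. In EtOH livers 2 rose and 3 fell, with a median of 0.01. These counts were near the shares of all genes, which were 19.3% in DE and 14.4% in DEHP livers, and 14.2% higher and 14.5% lower in EtOH livers. The genes called higher were Coq2, of ubiquinone synthesis, at 0.32 in DE and 0.25 in DEHP livers, and Fntb, a protein farnesyltransferase subunit, at 0.72 in DE and 0.68 in DEHP livers. Of 9 tested LXR targets and sterol export genes, 4 rose in each of DE, DEHP and EtOH livers, with medians of 0.17, 0.18 and 0.24. Pltp, a phospholipid transfer protein, rose by 2.93 in DE, 2.92 in DEHP and 1.07 in EtOH livers.

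Of 10 fatty acid synthesis genes known as SREBP-1 targets, 8 rose in DE and 6 in DEHP livers, and 5 fell in EtOH livers. Their median log2 changes were 0.94, 0.62 and -0.40. Of all tested genes 19.3% rose in DE and 14.4% in DEHP livers, and 14.5% fell in EtOH livers. Me1, malic enzyme, rose by 1.89 in DE and 1.48 in DEHP livers, and Acly, ATP citrate lyase, which supplies cytosolic acetyl-CoA, fell by 0.90 in EtOH livers (adjusted p = 0.00355). As a check of exposure, 8 of 10 PPARalpha target genes rose in DE and 8 in DEHP livers. Among them Ehhadh, of peroxisomal beta-oxidation, rose by log2 changes of 4.76 and 4.63. In EtOH livers 2 of these 10, Cpt1b and Pdk4, were called lower, with overlapping ranges, near the 14.5% of all genes called lower. In CT livers Cpt1b had a median of 0.74 and a highest value of 17.28 FPKM, and Pdk4 a median of 3.555 and a highest value of 34.69. Both are also expressed in skeletal muscle, whose markers were high in CT 1. The part of that library in their fall, and in their changes in DE and DEHP against CT livers, was not tested.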

How the data were processed

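The authors deposited 1 gene table per library with an expected count, an FPKM value and a transcript length for each gene. Per the file headers these are expected counts and FPKM, and per the labels' protocols the libraries were made with a TruSeq kit from 1 ug of Trizol-extracted RNA. The submitters' processing notes name mm10, GRCm38 and Cuffdiff, while the sources used here do not name the aligner, the counter or the strand setting.

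The deposited expected counts were rounded to whole numbers (94.5% to 95.3% were whole already) and tested with edgeR 4.0.16 in R 4.3.3, with TMM factors and a quasi-likelihood F test on a model of the 4 groups over 24 libraries (20 residual degrees of freedom). Genes with at least 1 FPKM in at least 6 libraries were tested, and p-values were adjusted over all of them by Benjamini-Hochberg, with 0.05 as the threshold. The script was tested on simulated data. Intervals are 95%. DESeq2 1.42.0 and limma 3.58.1 (on log2(FPKM + 1)) were among the alternatives, beside other scalings, filters, a replicate block and the leaving out of libraries. A gene with no row in a library was taken as 0. No replicate pair agreed within sampling noise (chi-square per degree of freedom 6.57 to 62.8 over 60 pairs). Levels are deposited FPKM, log2 changes come from counts.

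The members and gene lists were chosen with earlier results of these data known. All members are named in every comparison, with paralogs, for each list up to 2 called genes of lowest adjusted p and the 5 genes most like the members. Some genes that this rule names are not reported here.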

Additional observations from a re-analysis of the deposited data

Results flagged for a closer look

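Each member and group gave 1 set of 6 libraries, 36 sets in all. In 6 of them a library was set apart from the others by a gap larger than Dixon's 95% critical value. By chance about 1 in 20 such sets is flagged. The sets share libraries in which the members vary together, so they are not 36 independent trials. Acat2 was lowest in DE 4, at 108.67 FPKM. Hmgcs1 was highest in EtOH 6, at 197.02 FPKM, and in CT 3, at 228.63 FPKM. Mvk was highest in DEHP 1, at 46.93 FPKM, and in CT 3, at 27.77 FPKM. Idi1 was highest in DEHP 4, at 307.15 FPKM.

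The change of Pmvk with ethanol differed between mice given DEHP and mice not given it, by 0.764 on the log2 scale in edgeR's quasi-likelihood test of that difference (adjusted p = 0.0285).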

How the results depend on the processing

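Over 37 alternatives, all 333 values of the 9 members in each of DE vs CT, DEHP vs CT, DE vs DEHP and DE vs EtOH kept their direction and call. The highest adjusted p among the called comparisons was 0.000907 for DE vs CT, 0.027 for DEHP vs CT and 0.000857 for DE vs EtOH.

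In EtOH vs CT, 1 member was called higher with limma-trend on quantile-normalised log2 CPM (Mvd, 0.72, adjusted p = 0.0394), and 0 to 1 when single libraries were left out (Mvd, 0.88, adjusted p = 0.0176 without CT 2). The count called lower was 0 to 2 when single libraries were left out; Hmgcs1 joined without EtOH 6 (-0.63, adjusted p = 0.0448). Over all alternatives the adjusted p of Pmvk ran from 0.00195 to 0.0666. In the interaction (the ethanol change with DEHP minus that without it) 0 to 1 members were called when single libraries were left out, and the adjusted p of Pmvk ran from 0.00989 to 0.0549. The causes were not tested.

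Signs changed only among values that were never called. Fdps in EtOH vs CT was -0.048 without TMM factors, -0.054 with limma on log2(FPKM + 1) and on log2(FPKM + 0.1), -0.037 on quantile-normalised values, -0.158 on TPM, -0.146 without the length trend, -0.011 with a filter at 5 FPKM and -0.026 without DE 6, DEHP 6 and CT 1. With single libraries left out, Fdps ran from -0.085 to 0.14, Acat2 from -0.141 to 0.048 and Sqle from -0.178 to 0.067. In the interaction, Mvk was 0 without TMM factors, 0.008 and 0.007 with the 2 pseudocounts, 0.07 on TPM, 0.031 without the length trend and 0.033 without the 3 libraries. Under the same settings Fdft1 was 0.019, 0.026 and 0.024, 0.088, 0.021 and 0.066. With single libraries left out, Mvk ran from -0.164 to 0.012, Fdft1 from -0.179 to 0.071 and Mvd from -0.378 to 0.065 there.

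Among all genes, the median log2 change on TPM was -0.15 in EtOH vs CT, 0.12 in DE vs EtOH and 0.11 in the interaction. On that scale, 481 genes were called higher and 2764 lower in EtOH vs CT, against 1524 and 1555, and 2563 higher and 695 lower in DE vs EtOH, against 1620 and 1356. In EtOH vs CT, 930 were called higher without TMM factors and 906 without the length trend, which also gave 826 lower in DEHP vs CT, against 1241, and 1197 lower in DE vs CT, against 1865. DE vs DEHP, with 5 called higher and 8 lower, ranged from 0 to 19 and 0 to 25. The interaction, with 355 higher and 331 lower, reached 120 lower on TPM and 196 higher and 169 lower without the 3 libraries.

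Same-numbered libraries did not deviate together: r was -0.21 to 0.21 over 36 pairs, 7 of them over 0.1, and 3 of 24 libraries correlated best with their own number. With the replicate block, 9 members were called in DE vs CT, DEHP vs CT and DE vs EtOH, and Pmvk was at -0.48 in EtOH vs CT (adjusted p = 0.0194).

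The lowest value of a member was 8.34 FPKM, for Mvd in CT 4, above the filters at 1 and 5 FPKM, so neither filter removed a member. With no tie between libraries and animals, the error bars describe these libraries.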
